A study of Mus musculus with 12 samples.

Results

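Transcripts of 9 chemokine genes, Ccl3, Ccl4, Ccl6, Ccl9, Ccl12, Cxcl12, Cxcl14, Cxcl16 and Cx3cl1, were followed in the hippocampus of APP/PS1 and wild-type (WT) mice. They were chosen by name among the 55573 genes of the count table, as chemokines known from microglia near amyloid plaques or from neurons. Earlier results of these data were known when they were chosen. Each library came from the whole right hippocampus of 1 mouse of the C57BL/6J strain aged 4.5 months. The APP/PS1 mice carried the APPSwe/Ps1dE9 genotype, a model of amyloid disease in which mutant forms of the amyloid precursor and of presenilin 1 are expressed, per the study's methods, from a prion promoter element. There were 4 APP/PS1 and 2 WT animals of each sex, so the comparison within a sex rested on 2 WT animals. The tissue was not sorted, and the cells that made each transcript were not measured.

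Chemokines are small proteins that draw cells along their gradients by binding receptors coupled to G proteins. The CC chemokines of the Ccl3 family are made by activated myeloid cells, including microglia, the resident macrophages of the brain. Cx3cl1 (fractalkine) is made by neurons, stays bound to the membrane until proteases cut it, and is read by Cx3cr1 on microglia. Cxcl12 guides migrating neurons and leukocytes through Cxcr4, Cxcl14 is found in interneurons of the hippocampus, and Cxcl16 is another membrane-bound chemokine, read by Cxcr6.

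Total counts on genes ranged from 36714316 to 50643565 per library. Levels are given as normalized CPM, a count relative to the upper-quartile scaled size of the library, and differences as log2 fold changes of APP/PS1 over WT with their standard errors (SE). Transcripts of Thy1, a neuronal surface protein, were at 2173 to 3311 normalized CPM in the 8 APP/PS1 libraries and at 726 to 747 in the 4 WT libraries, with no overlap between the genotypes. Prnp, the prion protein gene, was at 720 to 822 in APP/PS1 and at 741 to 815 in WT libraries. Thy1 and not Prnp thus followed the genotype label, although the methods name a prion promoter, and which promoter drives the transgenes was not tested. Markers of the choroid plexus, the tissue in the ventricles that makes cerebrospinal fluid, were high in 3 libraries, with sums of 7134 normalized CPM in male 2 of the APP/PS1 group, 4013 in its female 1 and 4211 in WT female 2, and Ttr, its main marker, reached 249110 counts in one of them. The sum in the other 9 libraries was between 28.6 and 47.4. Markers of blood leukocytes summed to 7.82 normalized CPM in WT male 2, mostly from 2 neutrophil genes, and to 0.342 to 2.98 in the others. Markers of microglia were present in every library, with sums of 660 to 1095 normalized CPM in APP/PS1 and 444 to 579 in WT. Of the 16 markers, 11 were called higher in APP/PS1 with both sexes averaged, where 1.9% of all genes tested were called. In whole tissue more cells of a type and more RNA per cell cannot be told apart.

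Of the 9 genes, the 5 CC chemokines lie on chromosome 11 (GRCm38). Ccl9 (83572919 to 83578636), Ccl6 (83587882 to 83593087) and Ccl3 (83647844 to 83649355) are on the minus strand and Ccl4 (83662584 to 83664683) on the plus strand, with 9.245 kb between Ccl9 and Ccl6, 54.756 kb between Ccl6 and Ccl3 and 13.228 kb between Ccl3 and Ccl4. Ccl12 (82101845 to 82103400) lies 1470 kb before Ccl9. Cxcl16 is elsewhere on chromosome 11 (70453983 to 70459984), Cxcl12 on chromosome 6 (117168535 to 117181367), Cxcl14 on chromosome 13 (56288643 to 56296551) and Cx3cl1 on chromosome 8 (94772009 to 94782427). Promoter windows of 250 bases before to 50 bases after the start were taken from RefSeq (GRCm38.p6) for 7 of the 9 genes. They are shown for Ccl3, Ccl6 and Ccl9, neighbours that were higher in APP/PS1 mice, and for Cx3cl1, the most abundant of the genes, which was not called. Capitals mark every match, on either strand, to TATAAA (the TATA box), AGGAAG or GAGGAA (letters at the core of sites of PU.1, a factor of myeloid cells) or TGANTCA (the AP-1 motif).
Ccl3 (chr11:83649329-83649628, minus strand): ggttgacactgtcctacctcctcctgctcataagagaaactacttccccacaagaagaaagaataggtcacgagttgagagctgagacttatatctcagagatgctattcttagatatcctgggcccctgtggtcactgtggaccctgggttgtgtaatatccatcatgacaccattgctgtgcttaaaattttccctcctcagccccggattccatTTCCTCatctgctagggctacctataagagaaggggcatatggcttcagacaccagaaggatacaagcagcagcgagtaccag
Ccl6 (chr11:83593038-83593337, minus strand): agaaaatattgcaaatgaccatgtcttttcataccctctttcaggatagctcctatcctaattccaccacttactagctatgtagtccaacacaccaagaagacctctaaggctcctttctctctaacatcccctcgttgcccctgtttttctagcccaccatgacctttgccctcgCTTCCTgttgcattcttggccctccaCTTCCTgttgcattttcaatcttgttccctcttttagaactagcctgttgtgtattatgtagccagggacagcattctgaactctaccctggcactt
Ccl9 (chr11:83578587-83578886, minus strand): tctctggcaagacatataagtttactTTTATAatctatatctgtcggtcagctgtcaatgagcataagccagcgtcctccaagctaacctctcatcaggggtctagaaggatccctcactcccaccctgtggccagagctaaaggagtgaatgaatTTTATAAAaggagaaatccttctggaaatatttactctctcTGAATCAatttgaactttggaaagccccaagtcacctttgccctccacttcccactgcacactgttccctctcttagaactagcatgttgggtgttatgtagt
Cx3cl1 (chr8:94771930-94772229, plus strand): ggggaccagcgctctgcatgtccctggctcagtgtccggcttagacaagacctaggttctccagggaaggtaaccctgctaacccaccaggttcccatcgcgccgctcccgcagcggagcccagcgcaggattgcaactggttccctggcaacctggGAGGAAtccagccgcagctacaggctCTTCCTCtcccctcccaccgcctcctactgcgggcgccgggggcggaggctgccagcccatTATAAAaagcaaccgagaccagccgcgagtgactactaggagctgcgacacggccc
The window of Ccl6 held 2 matches to AGGAAG, that of Ccl3 held 1 match to GAGGAA, and that of Ccl9 held neither but had 3 matches to TATAAA, of which 2 overlap on opposite strands, and 1 to TGANTCA. Cx3cl1 had 1 match to TATAAA, 1 to AGGAAG and 2 to GAGGAA, and its AGGAAG match overlaps a GAGGAA match. Among 32851 promoter windows of this length, 13.6% held TATAAA, 35.4% AGGAAG, 28.3% GAGGAA and 7.81% TGANTCA, so the PU.1 letters are common. The windows of Ccl6 and Ccl9 aligned over 74 columns with 58 identical bases (78.4%), with the stretch shifted by 41 bases between the annotated starts, and their longest shared run was gccctccacttcc, of 13 bases. The next best alignment among the 7 windows had 20 identical bases. The GC content was 48.0% for Ccl3 and Ccl12, 45.3% for Ccl6 and 43.7% for Ccl9, with 2 or 3 CG pairs in each window. It was 64.7% for Cx3cl1 and Cxcl12 and 62.7% for Cxcl14, with 19 to 22 CG pairs, against a median of 52.7% and 7 CG pairs over all windows. The GC-rich windows were thus those of Cx3cl1, Cxcl12 and Cxcl14, whose levels differed little between genotypes. Ccl12, whose difference did not pass either, had a window at 48.0%. A link between GC content and the genotype difference was not tested.

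The first comparison asked which of the chemokines differed between APP/PS1 and WT hippocampi. Of the 6 genes tested across the genome Ccl6, a CC chemokine of macrophages, had the largest fitted fold change, and Ccl9 and Cxcl16 rose by about the same amount as each other. Cxcl12, Cxcl14 and Cx3cl1 did not pass the test. Ccl3 and Ccl4 were near absent from WT libraries and present in all APP/PS1 libraries, and Ccl12 depended on 1 WT animal.

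**Figure D1:**
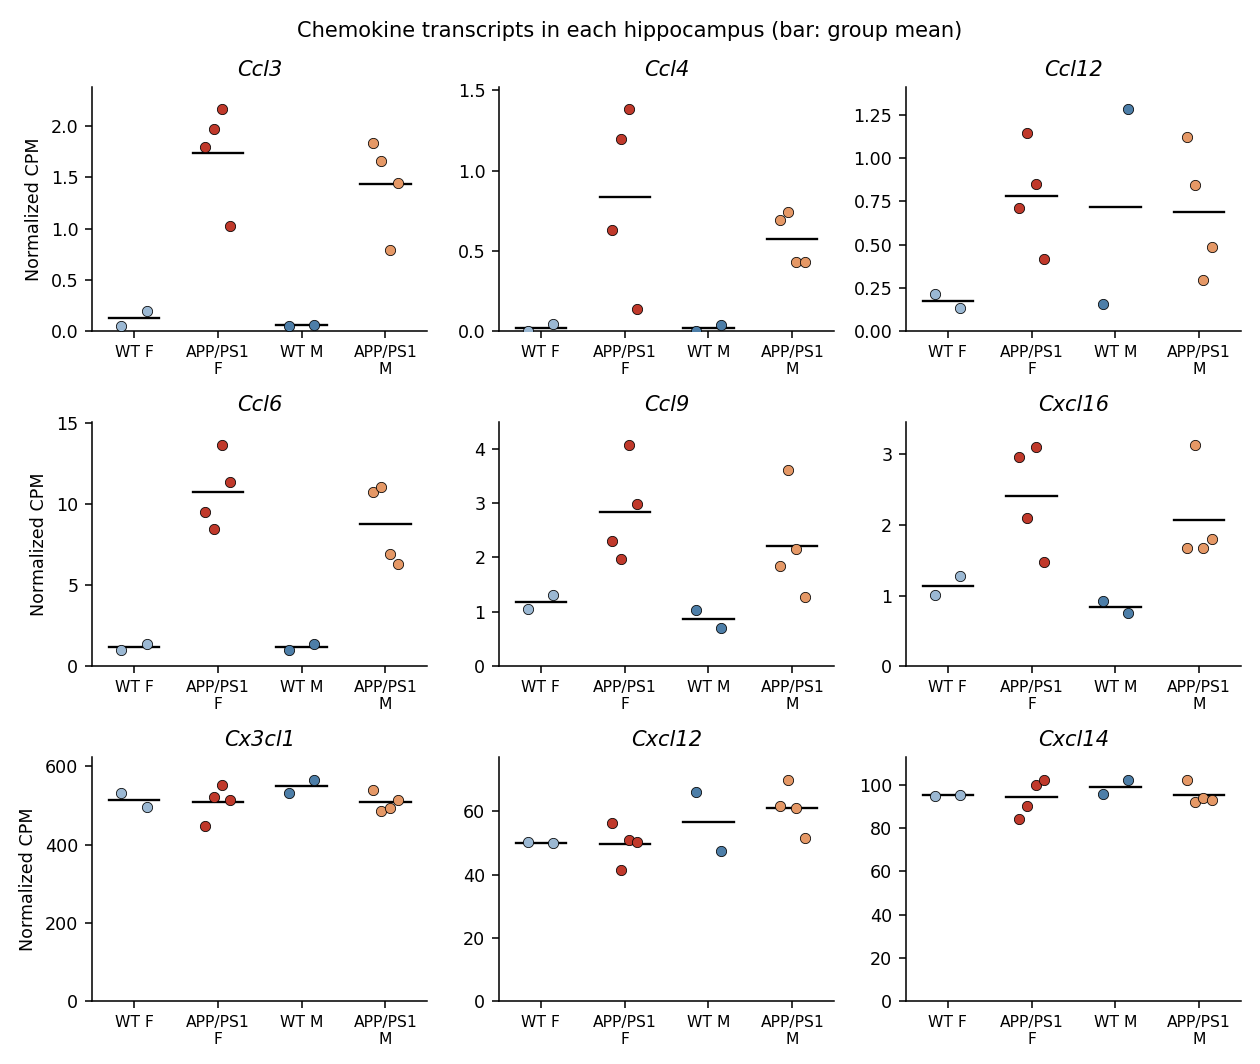
Normalized CPM of each chemokine (vertical axis, from 0) in the 4 groups, with 1 point per library and a bar at the group mean. F is female and M is male. In the top row the WT male at 1.28 for Ccl12 lies above every APP/PS1 library, in the middle row the APP/PS1 points lie above the WT points except for 1 APP/PS1 male in Ccl9, and in the bottom row the groups overlap.

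Of the 9 genes, 6 passed the expression filter (3 or more libraries with a log2 CPM no lower than 1). They were tested by the quasi-likelihood method of edgeR, with Benjamini-Hochberg adjustment over the 14008 genes that passed. With both sexes averaged, 3 of the 6 were called higher at an FDR under 0.1 and none was called lower, where 1.9% of all genes tested were called. Ccl6, Ccl9 and Cxcl16 reached the minimum of the filter only in APP/PS1 libraries, so their share among the genes that passed is not read against the background.

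Ccl6 stood at 9.50, 8.47, 13.7 and 11.3 normalized CPM in APP/PS1 females 1 to 4 and at 1.01 and 1.38 in the WT females. In males it was at 10.8, 11.03, 6.94 and 6.31 in APP/PS1 mice and at 0.974 and 1.34 in WT mice. The lowest APP/PS1 library was thus above 4 times the highest WT library, and the groups did not overlap. The log2 fold change was 2.95 ± 0.20 (SE) with both sexes averaged, a 7.71-fold difference (edgeR adjusted p = 2.45e-05). Within sexes it was 3.09 ± 0.29 in females (edgeR adjusted p = 7.69e-04) and 2.80 ± 0.29 in males (edgeR adjusted p = 0.00174). The gene body of Ccl6 is overlapped on the other strand by E230016K23Rik, which had 0 to 8 counts per library in both genotypes, and none of the 50-base windows of its transcripts is found in transcripts of another gene.

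Ccl9, a neighbour of Ccl6 that acts through Ccr1 on myeloid cells, was at 2.31, 1.97, 4.08 and 2.98 normalized CPM in APP/PS1 females and at 1.06 and 1.32 in WT females. In APP/PS1 males it was at 1.84, 3.60, 2.15 and 1.27, against 1.03 and 0.709 in WT males. APP/PS1 male 4, at 1.27, lay below WT female 2, and the other 7 APP/PS1 libraries were above all WT libraries. The log2 fold change was 1.14 ± 0.22 with both sexes averaged (edgeR adjusted p = 0.0244), or 2.21-fold. The call was lost without WT female 1, where the log2 fold change was 1.08 (edgeR adjusted p = 0.188), and without the 3 libraries rich in choroid plexus transcripts, fitted without RUV factors, where it was 1.27 (edgeR adjusted p = 0.160). Of the 50-base windows of its transcripts 1.97% are also found in transcripts of other genes, 463 in all.

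Cxcl16, which binds Cxcr6 and also serves as a scavenger receptor, was at 2.96, 2.10, 3.11 and 1.48 normalized CPM in APP/PS1 females and at 1.01 and 1.27 in WT females. In males it was at 1.67, 3.14, 1.67 and 1.81 in APP/PS1 mice and at 0.922 and 0.749 in WT mice. All 8 APP/PS1 libraries were above all 4 WT libraries, and the highest of them, male 2 at 3.14, was a library rich in choroid plexus transcripts, whose part in this value was not tested. The log2 fold change was 1.18 ± 0.20 with both sexes averaged (edgeR adjusted p = 0.0132), or 2.27-fold. Without the 3 libraries rich in choroid plexus transcripts Cxcl16 fell below the filter and was not tested. Of its gene body 552 bases overlap Zmynd15 on the other strand, and 16.9% of the 50-base windows of its transcripts are found in transcripts of that gene. Zmynd15 had 3 to 18 counts per library in APP/PS1 and 1 to 10 in WT mice.

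Within one sex only Ccl6 was called by edgeR's quasi-likelihood test, in females as in males, where 0.771% and 0.171% of all genes tested were called. Ccl9 and Cxcl16 had fold changes in each sex close to their averages. For Ccl9 the log2 fold change was 1.12 ± 0.31 in females (edgeR adjusted p = 0.206) and 1.17 ± 0.32 in males (edgeR adjusted p = 0.356). For Cxcl16 it was 1.21 ± 0.29 in females (edgeR adjusted p = 0.110) and 1.15 ± 0.29 in males (edgeR adjusted p = 0.326). By edgeR's likelihood ratio test Ccl6, Ccl9 and Cxcl16 were all called in each sex, where it called 2.06% of all genes in females and 1.01% in males. By DESeq2, which called 2.11% and 1.04%, all 3 were called in females and Ccl6 and Cxcl16 in males. The difference between the sexes in the genotype effect, tested as an interaction, was called for none of the 6 genes by edgeR's quasi-likelihood test, and none had an unadjusted p under 0.05. Neither edgeR's likelihood ratio test nor DESeq2 called any of the 6. Over all genes 0% were called in the interaction, with 565 genes at an unadjusted p under 0.05, while the likelihood ratio test called 12 and DESeq2 9. The 95% interval of the interaction ran from -1.01 to 0.90 on the log2 scale for Ccl9 and from -0.59 to 1.17 for Ccl6, so sex differences within these bounds are within the error.

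**Figure D2:**
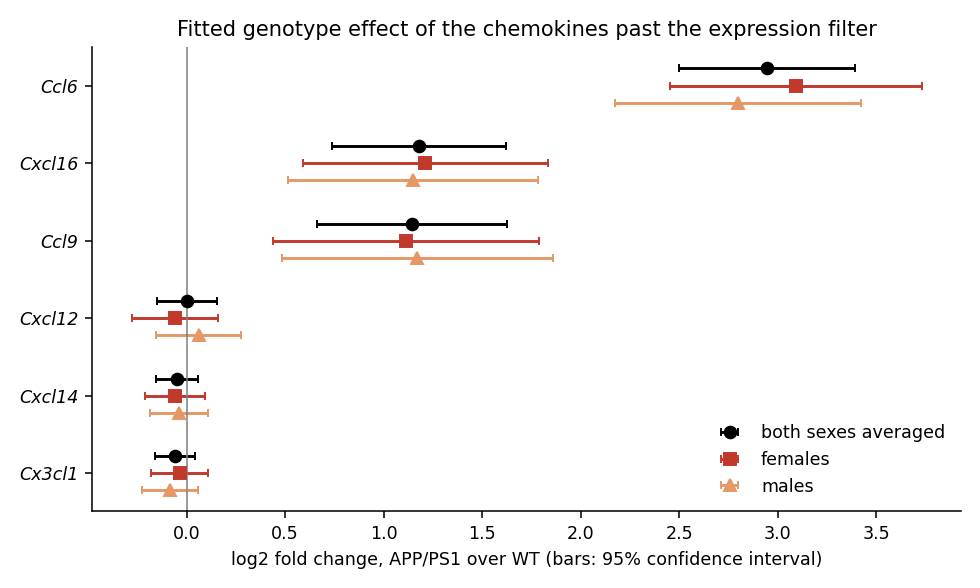
Fitted log2 fold change of APP/PS1 over WT (horizontal axis) of the 6 chemokines that passed the expression filter, with both sexes averaged (circles), in females (squares) and in males (triangles); bars are 95% confidence intervals. Ccl6 lies near 3, Cxcl16 and Ccl9 near 1, and the intervals of Cxcl12, Cxcl14 and Cx3cl1 include 0.

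Cx3cl1 was the most abundant of the chemokines. It was at 449, 521, 553 and 514 normalized CPM in APP/PS1 females and at 531 and 497 in WT females, and at 539, 485, 494 and 513 in APP/PS1 males and 531 and 566 in WT males. The ranges overlapped in females, and in males 3 of 4 APP/PS1 libraries lay below both WT libraries. Its log2 fold change was -0.060 ± 0.047 with a 95% interval from -0.16 to 0.042 (edgeR adjusted p = 0.748). For Cxcl14 the values were 84.1, 90.2, 99.9 and 102 in APP/PS1 females, 94.98 and 95.07 in WT females, 102, 91.9, 93.7 and 93.0 in APP/PS1 males and 95.6 and 102 in WT males. These groups overlapped, and the log2 fold change was -0.049 ± 0.049 with an interval from -0.15 to 0.056 (edgeR adjusted p = 0.816). Cxcl12 was at 56.5, 41.4, 50.9 and 50.4 in APP/PS1 females, 50.2 and 49.9 in WT females, 61.8, 70.1, 61.0 and 51.7 in APP/PS1 males and 66.2 and 47.3 in WT males. The spread within each group of males was wider than the difference between the groups, and the interval of the log2 fold change ran from -0.15 to 0.15 (edgeR adjusted p = 0.9995). For these 3 genes the interval with both sexes averaged thus leaves room for differences of at most 0.16 on the log2 scale. Within a sex the intervals were wider, and for Cxcl12 they ran from -0.28 to 0.16 in females and from -0.15 to 0.28 in males. Summed markers of neurons were at 8013 to 8833 normalized CPM in APP/PS1 and 8250 to 8618 in WT libraries, and none of the 10 neuronal and none of the 10 interneuron markers was called by edgeR's quasi-likelihood test, with 1 of each list at an unadjusted p under 0.05.

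The 3 chemokines below the expression filter were compared by their raw counts and by exact permutation of the genotype labels within each sex (all assignments, two-sided, smallest possible p 0.00444), and the 3 p-values are not adjusted. Ccl3 (macrophage inflammatory protein 1 alpha), which binds Ccr1, had 71, 74, 94 and 37 counts in APP/PS1 females and 2 and 9 in WT females. In males it had 77, 65, 35 and 57 counts in APP/PS1 mice and 2 and 3 in WT mice. All 8 APP/PS1 libraries lay above all 4 WT libraries, with a mean of 1.59 normalized CPM against 0.0905 (exact permutation p = 0.00444). Summed over libraries, 510 counts against 16 gave a ratio of 17.1 per scaled library size, with a 95% interval from 10.4 to 30.1 that covers counting error only.

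Ccl4 (macrophage inflammatory protein 1 beta), a close relative of Ccl3, had 25, 45, 60 and 5 counts in APP/PS1 females against 0 and 2 in WT females, and 29, 29, 19 and 17 in APP/PS1 males against 0 and 2 in WT males. Again the groups did not overlap, although APP/PS1 female 4 came close to WT with its 5 counts. The means were 0.706 and 0.0208 normalized CPM (exact permutation p = 0.0178), and the 229 counts against 4 gave a ratio of 30.7 with a counting interval from 11.8 to 114. Among genes with a count but below the filter, 0.337% had all APP/PS1 libraries above all WT libraries, as Ccl3 and Ccl4 did, and among genes tested 1.31% did, as Ccl6 and Cxcl16 did. The first share is over 19613 genes, which include genes without a count in some APP/PS1 libraries. Such genes cannot separate in this way, so it is not a share among genes of like abundance. With a filter at a CPM of at least 1 in at least 3 libraries, which 15521 genes passed and which called 1.98% of them, Ccl3 was tested and had a log2 fold change of 4.22 ± 0.39 (edgeR adjusted p = 1.06e-04). Without a filter, where 0.952% of 33621 genes were called, Ccl4 had 4.81 ± 0.59 (edgeR adjusted p = 1.50e-05). Ccl3 met the CPM filter in APP/PS1 libraries alone.

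Ccl12 (monocyte chemotactic protein 5), a ligand of Ccr2, had 28, 43, 37 and 15 counts in APP/PS1 females and 8 and 6 in WT females, and 47, 33, 13 and 19 in APP/PS1 males. The WT males had 6 and 65 counts, and the 65 counts of WT male 2 were more than in any other library. The means were 0.733 normalized CPM in APP/PS1 and 0.446 in WT mice, and the difference of 0.288 did not pass (exact permutation p = 0.302). Leaving out each animal in turn gave differences of 0.183 to 0.566 normalized CPM. The largest was without WT male 2, which was singled out after its value was seen. With the CPM filter the log2 fold change was 2.34 ± 0.89 in females (edgeR adjusted p = 0.410) and -0.061 ± 0.70 in males (edgeR adjusted p = 0.997), and the difference between the sexes did not pass (edgeR adjusted p = 0.997).

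WT male 2 also had the highest sum of blood leukocyte markers, 397 counts, of which 374 were S100a8 and S100a9. It had 175 counts of S100a8 and 199 of S100a9, calcium-binding proteins abundant in neutrophils, where the other 11 libraries had at most 12 and 38. The other 11 markers of the list summed to 23 counts there and to 6 to 75 elsewhere, with the most in APP/PS1 male 1. Of the receptors, Cxcr2 had 35 counts there and at most 4 elsewhere, and Ccr1 had 57 counts there and at most 31 in APP/PS1 libraries. These 4 genes were chosen after their values were seen. Summed markers of border macrophages were also highest in WT male 2, at 31.2 normalized CPM. The other libraries were at 17.9 to 29.5. Ccl3 and Ccl4, with 3 and 2 counts in WT male 2, did not share the high value of Ccl12. The part of neutrophils or of border macrophages in that Ccl12 value was not tested.

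**Figure D3:**
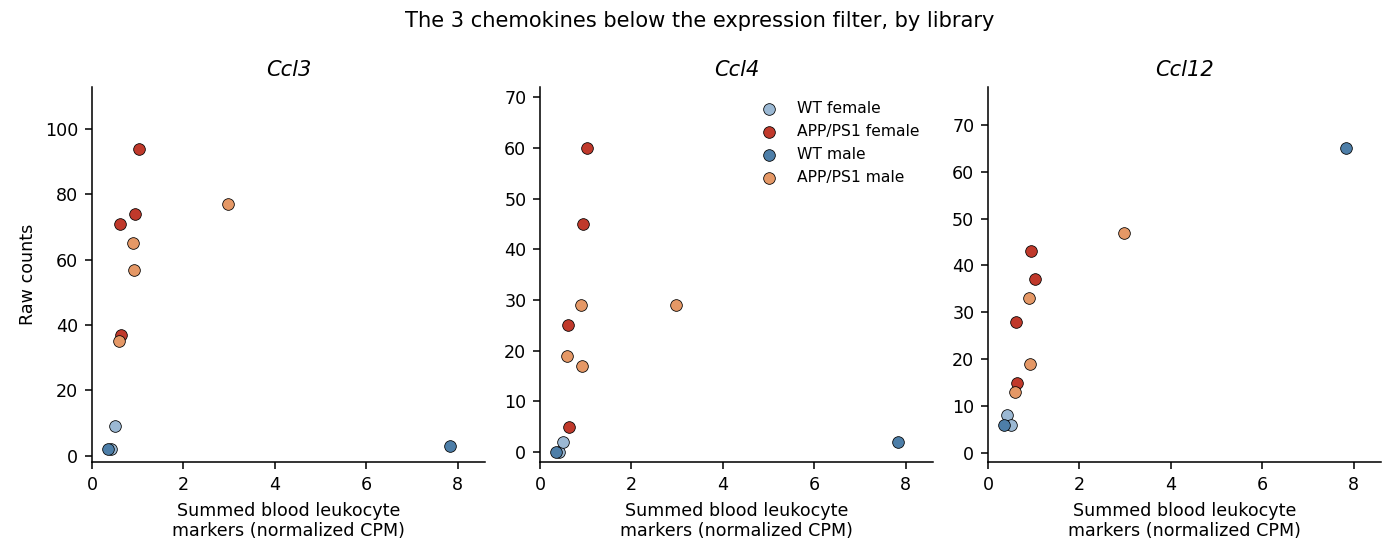
Raw counts of Ccl3, Ccl4 and Ccl12 (vertical axes) against the summed normalized CPM of 13 blood leukocyte markers (horizontal axis), with 1 point per library coloured by group. WT male 2 stands alone at the right at 7.82, near 0 counts for Ccl3 and Ccl4 and at 65 counts for Ccl12.

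Because microglial markers were themselves higher in APP/PS1 libraries, each chemokine was also set against the summed counts of the 16 microglial markers of the same library, for the 8 genes with a count in every library. The p-values come from exact permutation within sex and are not adjusted. Ccl3 was 11.7-fold higher per microglial marker count in APP/PS1 mice (log2 difference 3.55, exact permutation p = 0.00444) and Ccl6 was 4.75-fold higher (2.25, exact permutation p = 0.00444). For both, all 8 APP/PS1 libraries were above all 4 WT libraries. The share of all genes that separate in this ratio was not computed, so the separation is not read against a background. For Ccl9 the ratio was 1.38-fold (0.46, exact permutation p = 0.133) and for Cxcl16 it was 1.29-fold (0.37, exact permutation p = 0.147). Neither passed, which with 8 against 4 libraries does not show that a difference is absent. Leaving out each animal in turn gave 0.22 to 0.64 for Ccl9 and 0.17 to 0.55 for Cxcl16. Since the microglial markers were higher in APP/PS1 libraries, a gene with the same level in both genotypes has a lower ratio, and Cx3cl1, Cxcl14 and Cxcl12 were at 0.557, 0.568 and 0.603 of the WT ratio, given without a test. Ccl12 differed by 0.50 (exact permutation p = 0.404). Leaving out each animal in turn gave 0.20 to 1.17 for Ccl12, the largest without WT male 2, which was singled out after its value was seen.

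**Figure D4:**
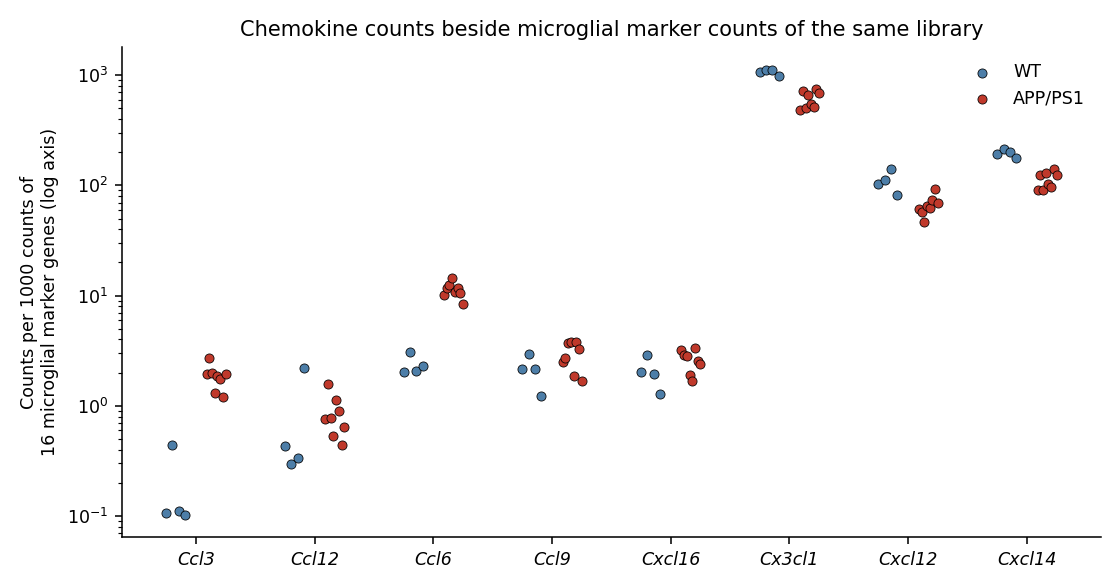
Counts of each chemokine per 1000 counts of 16 microglial marker genes in the same library (vertical log axis), with 1 point per library, WT in blue and APP/PS1 in red; Ccl4 is left out because 2 WT libraries had no count. Ccl3 and Ccl6 separate upwards in APP/PS1 mice, Ccl9 and Cxcl16 overlap between genotypes, and Cx3cl1 and Cxcl14 separate downwards.

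The order of the genes was compared on levels per length, as normalized CPM per kb of exon. In APP/PS1 mice the means were 129 ± 8.35 for Cx3cl1, 51.8 ± 3.47 for Cxcl14, 6.78 ± 1.08 for Cxcl12 and 5.43 ± 1.37 for Ccl6 (SD, n = 8). They were 2.07 ± 0.615 for Ccl3, 1.37 ± 0.589 for Ccl12, 1.07 ± 0.621 for Ccl4, 0.829 ± 0.312 for Ccl9 and 0.743 ± 0.235 for Cxcl16. Neighbours in this order overlapped in range from Cxcl12 to Ccl6 and from Ccl3 down to Cxcl16, while Cx3cl1, Cxcl14 and the step from Ccl6 to Ccl3 were separate. In WT mice the levels per length were 135 ± 7.17 for Cx3cl1, 53.1 ± 1.91 for Cxcl14 and 6.53 ± 1.05 for Cxcl12 (SD, n = 4), and all others were below 1. There Ccl12 stood at 0.830 ± 1.04, Ccl6 at 0.655 ± 0.120, Ccl9 at 0.338 ± 0.0817, Cxcl16 at 0.327 ± 0.0723, Ccl3 at 0.118 ± 0.0931 and Ccl4 at 0.0315 ± 0.0365. Ccl3 and Ccl4 were the lowest of the genes in WT mice and ranked above Ccl9 and Cxcl16 in APP/PS1 mice. Ccl6 took 2.71% of the summed level per length of the 9 genes in APP/PS1 mice and 0.333% in WT mice, and Cx3cl1 took 64.9% and 68.6%.

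**Figure D5:**
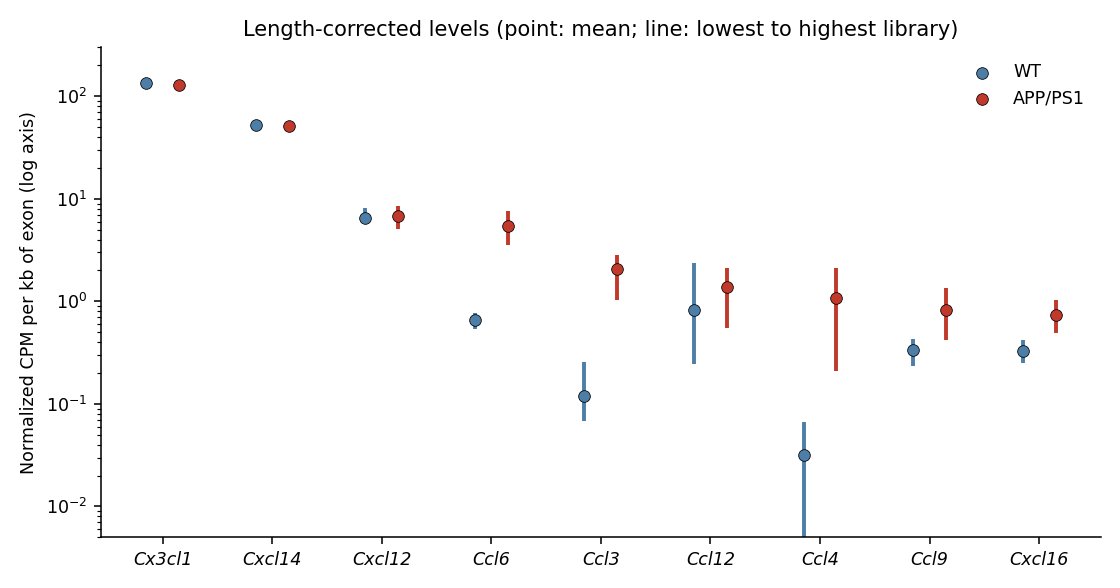
Normalized CPM per kb of exon (vertical log axis) of the 9 chemokines in WT (blue, 4 libraries) and APP/PS1 mice (red, 8 libraries), ordered by the APP/PS1 mean; points are means and lines run from the lowest to the highest library. The line of Ccl4 in WT mice runs off the axis because 2 WT libraries were at 0. The first 3 genes lie at the same height in both genotypes and Ccl6 comes up to the range of Cxcl12 in APP/PS1 mice.

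Likeness of pattern was described by Pearson's r of log2 normalized CPM over the 12 libraries, which share the genotype difference, so r is high for any pair of genes that differ between genotypes. Among all genes tested, the 3 most like Ccl6 were Thy1 (r = 0.988), Cst7, a cystatin protease inhibitor (0.987), and Tyrobp, the adaptor of Trem2 in microglia (0.981). Those most like Cxcl16 were Chil1 (0.983), Tent5c (0.956) and AC102342.2 (0.947), and those most like Ccl9 were Arhgdib (0.926), Psmd12 (0.908) and Hmgcs1 (0.905). Cx3cl1 was most like Pdxp (0.944), Adra2c (0.937) and Galnt18 (0.919), Cxcl14 was like Pgp (0.948) and Tmem250-ps (0.913), and Cxcl12 was most like Msra (0.903), 6330420H09Rik (0.896) and Myh15 (0.887). Within the 8 APP/PS1 libraries, with 0.05 added to each value before the logarithm, r was 0.911 between Ccl3 and Ccl12, 0.823 between Ccl6 and Ccl9, 0.802 between Cxcl14 and Cx3cl1 and 0.776 between Ccl3 and Ccl4. It was 0.144 between Ccl3 and Ccl9. With 8 libraries and low counts these values are a description.

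Of 29 other chemokine ligands, 4 passed the filter and 1 was called, where 1.9% of all genes tested were called. The median log2 fold change of the 4 was 0.072 and that of all genes tested 0.0096. The called gene was Cxcl5, a chemokine of neutrophils, which stood at 2.94, 1.89, 2.86 and 1.17 normalized CPM in APP/PS1 females, 0.714 and 1.58 in WT females, 2.60, 2.76, 0.814 and 1.43 in APP/PS1 males and 0.553 and 0.276 in WT males. The genotypes overlapped, with 5 of 8 APP/PS1 libraries above all WT libraries. Its log2 fold change was 1.58 ± 0.34 (edgeR adjusted p = 0.0507). It too passed the filter through APP/PS1 libraries alone. Of the 25 below the filter, 5 had no count in any library. Cxcl10, a chemokine induced by interferon, was one of the 25 and is named after its values were seen. It had 17 to 121 counts in APP/PS1 and 2 to 20 in WT libraries, and 7 of 8 APP/PS1 libraries were above all WT libraries in normalized CPM. With the CPM filter, which it passed through APP/PS1 libraries alone, its fitted log2 fold change was 2.80 ± 0.46.

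Of 23 chemokine receptors, 5 passed the filter and none was called by edgeR's quasi-likelihood test, with 1 at an unadjusted p under 0.05 and a median log2 fold change of 0.14. That gene was Cx3cr1, the receptor of Cx3cl1, at 51.4 to 86.0 normalized CPM in APP/PS1 libraries (median 61.8) and at 34.8 to 44.7 in WT libraries (median 44.2). All its APP/PS1 libraries were above all WT libraries, as in 1.31% of all genes tested. Its log2 fold change was 0.67 ± 0.17 (edgeR adjusted p = 0.187). Both edgeR's likelihood ratio test and DESeq2 called it, with 2.83% and 2.85% of all genes.

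Of 6 proteases that cut chemokines, 5 passed the filter and 1 was called, with a median log2 fold change of 0.14. Of all genes tested 1.9% were called. Ctss (cathepsin S), a lysosomal protease that sheds Cx3cl1, was at 111 to 215 normalized CPM in APP/PS1 libraries and at 65.5 to 104 in WT libraries, with no overlap. Its log2 fold change was 1.06 ± 0.20 (edgeR adjusted p = 0.0645). Of 14 genes that carry the signal of chemokine receptors inside the cell, 13 passed the filter and their median was 0.44. In this list 3 genes were called higher and none lower, beside the same 1.9% of all genes. These were Dock2, which activates Rac in migrating leukocytes, at 0.80 ± 0.12 (edgeR adjusted p = 0.00685), the kinase subunit Pik3cg at 0.78 ± 0.16 (edgeR adjusted p = 0.0292) and the exchange factor Vav1 at 0.69 ± 0.17 (edgeR adjusted p = 0.0783). Each of the 3, like Ctss, was higher in all 8 APP/PS1 libraries than in all WT libraries, as were 1.31% of all genes tested. The microglial markers of the same libraries had a median of 0.80, and their part in these values was not tested. In the fit without RUV factors and without the 3 choroid plexus-rich libraries, none of Cxcl5, Ctss, Dock2, Pik3cg and Vav1 was called by edgeR, where 66 of 13726 genes were called and 920 had an unadjusted p under 0.05. Cxcl5 was also not called without either WT female, APP/PS1 male 2 or WT male 2, and Ctss not without APP/PS1 female 1, either WT female or WT male 1. Vav1 was not called when any one of APP/PS1 females 1 to 3, APP/PS1 male 1, WT male 1 or either WT female was left out, and Pik3cg was not called without WT female 2.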

How the data were processed

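Directional poly-A libraries of whole right hippocampi from 12 mice were analysed. The deposited values are raw counts per Ensembl gene, which the authors made with Trimmomatic for trimming, STAR for alignment to GRCm38 and HTSeq for counting. Versions, strand and multi-mapping options are not given in the sources used here, and their edgeR comparisons were not used. Of 55573 identifiers, 55480 matched GENCODE M21, which gave symbols, positions and exon lengths. Every pair of libraries within a group differed by more than sampling noise (chi-square per degree of freedom 15.5 to 73.0 over 14 pairs). The labels name separate animals.

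The 14008 genes whose log2 CPM was no lower than 1 in 3 or more libraries were tested with edgeR 4.0.16 (R 4.3.3) by the quasi-likelihood test in 1 model of 4 groups, with upper-quartile scaling and 2 RUV factors, computed by RUVg as re-implemented here, with control genes that excluded the 5000 of smallest p in a preliminary fit. Contrasts were two-sided, adjusted over all genes by the Benjamini-Hochberg method and called at an FDR under 0.1. Genes below the filter and ratios to microglial markers were compared by exact permutation. Count ratios have exact 95% intervals, which cover counting error only. The procedure was tested on simulated counts.

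Alternatives were the likelihood ratio test, DESeq2 1.42.0, TMM scaling, other filters, fewer RUV factors, a replicate block, an FDR of 0.05, a 4-gene microglial list, and leaving out each animal or the 3 libraries rich in choroid plexus transcripts. The genes named were all 9 chemokines, the called genes of each pathway list or else its 2 genes of smallest p, the 3 genes most like each tested chemokine, and Thy1, Prnp and Ttr. Some genes that this rule names are not reported here. The members and the gene lists were chosen with earlier results of these data known.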

Additional observations from a re-analysis of the deposited data

Results flagged for a closer look

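Cxcl16 in APP/PS1 male 2, at 3.14 normalized CPM, stood apart from the other 3 APP/PS1 males, which were at 1.67 to 1.81. Its gap to the nearest of them was 0.906 of the range of the group, above Dixon's critical value of 0.829 for 4 samples. It was the only one of 18 groups checked, and chance flags about 1 in 20 groups. This library was also the richest in choroid plexus transcripts, whose part in the value was not tested. Without it the log2 fold change of Cxcl16 with both sexes averaged was 1.08 (edgeR adjusted p = 0.0519).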

How the results depend on the processing

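Over 48 results and 742 alternatives, 669 were labelled the same. For a single gene this meant the same direction and side of the threshold. A count of genes called had to stay within a set ratio of the main count, and a level per length within its SD. Single calls could thus still change under this label, such as Ccl3 gained with the CPM filter and Vav1 lost with the replicate block. Ccl6 was called under every alternative run, with both sexes averaged and in each sex. The count of the 9 chemokines called with both sexes averaged (3) was 5 without a filter, which lets in Ccl3 and Ccl4, and 1 without RUV factors and without the 3 choroid plexus-rich libraries, where fewer animals were tested. In females (1) it was 3 by the likelihood ratio test, 3 by DESeq2, 2 with the CPM filter, 4 without a filter and 1 to 2 leaving out each animal. In males (1) it was 3, 2, 2 and 3 under the same first 4 settings. For the other ligands (1 called) it was 0 at an FDR of 0.05, without RUV factors, with the replicate block and without the 3 libraries and RUV factors, 2 with the CPM filter and without a filter, and 0 to 1 leaving out each animal. For the receptors (0) it was 1 by the likelihood ratio test, by DESeq2, with no or 1 RUV factor, and 0 to 1 leaving out each animal. For the proteases (1) it was 0 at an FDR of 0.05, without a filter, with the replicate block and without the 3 libraries and RUV factors, and 0 to 1 leaving out each animal. For the signalling genes (3) it was 7 by the likelihood ratio test, 6 by DESeq2, 5 without a filter, 0 without the 3 libraries and RUV factors and 1 to 6 leaving out each animal, with 1 without WT female 2, 5 when APP/PS1 male 3 was left out and 6 without WT male 2. The cause of these moves was otherwise not tested. The number of all genes called moved too. With both sexes averaged it was 266 of 14008 in the main fit, 396 by the likelihood ratio test and 399 by DESeq2. In females the same 3 fits called 108, 288 and 296 genes, and in males 24, 142 and 146. With both sexes averaged it was 308 of 15521 with the CPM filter and 320 of 33621 without a filter. It was 173 without RUV factors and 196 with the replicate block. A moved count is thus not read as a result about its list.

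The sign turned only for genes near 0, none of them called. The log2 fold change of Cxcl12 with both sexes averaged was 0.00068 and became -0.012 by DESeq2, -0.0086 with TMM, -0.012 without a filter, -0.018 with the replicate block, -0.020 without the 3 libraries and RUV factors, and -0.091 to 0.13 leaving out each animal. It was 0.018 in females with 1 RUV factor, and -0.15 to 0.29 in males leaving out each animal. That of Cxcl14 in females was 0.032 without the 3 libraries and RUV factors and -0.098 to 0.011 leaving out each animal, and in males -0.097 to 0.019. That of Cx3cl1 in females was -0.072 to 0.048. Libraries with the same replicate number did not consistently deviate together (median r 0.0074, from -0.67 to 0.73). In 4 of 14 pairs r was over 0.1. The numbers were not taken as pairs. Under the replicate block 3 of the 9 chemokines were called with both sexes averaged, as without it. TMM moved the median of all genes by -0.0094. Depth limits Ccl3, Ccl4 and Ccl12, with 0 to 94 counts per library.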
